A study of Homo sapiens with 145 samples.

Results

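Condensin and cohesin are ring-shaped protein complexes built on pairs of SMC (structural maintenance of chromosomes) ATPases. The 10 genes described here encode the condensin subunits SMC2, SMC4, NCAPH, NCAPG, NCAPD2, NCAPD3 and NCAPG2 and the cohesin subunits SMC1A, SMC3 and RAD21. They were taken by their gene symbols in the platform annotation, with 1 probe set per gene, the one with the highest mean over all arrays. All 10 were measured, among 12070 genes that passed a filter on low values, and 20 of their 22 probe sets passed it.

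The cells were HT-1080, a human line established from a fibrosarcoma, a connective tissue tumour. They were exposed for 24 h to etoposide (ETP, which traps DNA topoisomerase II on cut DNA), methyl methanesulfonate (MMS, a DNA-methylating agent) or quercetin (QUE, a plant flavonol). RNA was read on 145 Affymetrix arrays, which have 3′ probes that match the transcript perfectly. ETP was given at 0.003, 0.01, 0.03, 0.1, 0.3, 1 and 3 µM, MMS at 1, 3, 10, 30, 100, 300 and 500 µM, and QUE at 1, 3, 10, 30, 60, 80 and 100 µM. All 3 chemicals were dissolved in DMSO, so every dosed well and every control well held 0.1% DMSO, and each chemical had a DMSO group of its own. The labels name no genotype change. After the exclusions given next, each ETP and QUE group held 5 replicates and each MMS group held 6, except MMS 500 µM with 5.

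The ETP and QUE arrays titled as replicate 2 were left out, 16 arrays in all, since they responded like the other chemical. Across genes, the change on the ETP 3 µM array of that number had a Pearson correlation of 0.304 with the mean ETP 3 µM change and 0.902 with the mean QUE 100 µM change, and the QUE 100 µM array of that number 0.387 with QUE and 0.890 with ETP. Array medians lay between 3.51 and 3.59 in the ETP experiment, 3.08 and 3.17 in MMS and 3.33 and 3.41 in QUE, on the log2 scale. Of 10 mesenchymal markers, 8 averaged at least 4 in DMSO (vimentin, VIM, averaged 13.2), as did 0 of 8 epithelial, 1 of 7 blood and 0 of 6 endothelial markers. The mean of the mesenchymal list ran between 7.83 and 8.30 at MMS 500 µM, against 8.79 and 9.03 in MMS DMSO, between 8.73 and 9.28 at QUE 100 µM, against 9.22 and 9.37, and between 9.31 and 9.44 at ETP 3 µM, against 9.34 and 9.49. Its part in the results was not tested. Replicate numbers are not said to be separate cultures, so p-values measure the spread between these samples, which may be technical.

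As background, SMC2 and SMC4 form the ATPase pair of both condensins. Condensin I adds the kleisin NCAPH, which closes the ring, and the HEAT-repeat subunits NCAPG and NCAPD2, and it reaches chromosomes after the nuclear envelope breaks down in mitosis. Condensin II uses NCAPG2, NCAPD3 and its own kleisin in their place, and it is in the nucleus throughout the cell cycle. Cohesin is built on SMC1A and SMC3, closed by the kleisin RAD21, and it holds sister chromatids together and folds interphase chromatin into loops. Many condensin and mitotic genes are expressed mostly in dividing cells, whereas cohesin is needed in dividing and resting cells alike.

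Promoters are shown first, because most of these genes moved together and their starts could be compared letter by letter. RefSeq promoters (GRCh38.p14, 250 bases before to 50 bases after each start) were held for 9 of the 10 genes, 13 promoters in all, and not for RAD21. Each was searched on both strands for the cell cycle genes homology region (CHR, TTTGAA or TTCGAA), the CCAAT box (CCAAT) and an E2F-type site (TTTGGCGC, TTTGCCGC, TTTCGCGC or TTTCCCGC). A CHR word was in 7 of the 13 promoters, those of SMC2, SMC4, NCAPG, NCAPD2, NCAPD3, NCAPG2 and SMC3, and in 16.4% of all 35116 promoters of the table. A CCAAT word was in 3, those of NCAPH, NCAPD2 and NCAPD3, against 34.6% of all, and an E2F word in 2, those of NCAPD3 and SMC1A, against 3.31% of all. No match overlapped that of another motif. These matches describe letters only and were not tested as sites.

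The 130 bases before the start are printed 5′ to 3′ for 5 condensin genes and for SMC1A, which was called at no dose by the probe set used here, with any of these words in capitals. SMC4 lies at chr3:160399520-160399649 on the plus strand and has a CHR word at position -75, counted back from the start. NCAPH (chr2:96335636-96335765, plus strand) has a CCAAT word at -112, and NCAPG (chr4:17810849-17810978, plus strand) has a CHR word at -35. NCAPD2 (chr12:6493972-6494101, plus strand) has CCAAT words on the other strand at -70 and -30, and NCAPD3 (the second of its starts, chr11:134223968-134224097, minus strand) has them at -110 and -45. SMC1A (the second of its starts, chrX:53422655-53422784, minus strand) has an E2F word at -20.
SMC4: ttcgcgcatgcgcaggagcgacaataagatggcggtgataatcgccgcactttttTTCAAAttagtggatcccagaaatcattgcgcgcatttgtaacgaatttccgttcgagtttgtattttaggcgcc
NCAPH: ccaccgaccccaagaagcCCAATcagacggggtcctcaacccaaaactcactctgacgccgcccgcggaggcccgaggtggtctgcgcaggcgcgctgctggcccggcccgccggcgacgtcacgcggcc
NCAPG: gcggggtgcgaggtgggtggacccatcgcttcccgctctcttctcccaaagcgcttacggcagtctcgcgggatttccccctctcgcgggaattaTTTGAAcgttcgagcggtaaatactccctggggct
NCAPD2: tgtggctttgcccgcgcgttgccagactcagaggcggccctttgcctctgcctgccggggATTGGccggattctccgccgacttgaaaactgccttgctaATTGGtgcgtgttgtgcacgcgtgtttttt
NCAPD3: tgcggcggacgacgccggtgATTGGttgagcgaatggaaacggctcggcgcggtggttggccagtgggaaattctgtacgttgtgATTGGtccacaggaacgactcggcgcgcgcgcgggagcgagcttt
SMC1A: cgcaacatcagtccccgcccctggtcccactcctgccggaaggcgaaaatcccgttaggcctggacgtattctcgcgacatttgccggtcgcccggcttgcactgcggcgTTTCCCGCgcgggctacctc

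All 7 condensin genes were called lower at the highest ETP and QUE doses, and 5 of the 7 at the highest MMS dose. There SMC2 (-0.47) and NCAPD3 (-0.40) were lower by less than the fold limit. Of the cohesin genes SMC3 alone was called at the highest doses, with ETP. RAD21 was lower with all 3 chemicals by less than the fold limit (-0.55 with MMS). Condensin and cohesin were not tested against each other. A gene was called where limma's Benjamini-Hochberg adjusted p over all 12070 genes was under 0.05 and the change was at least 1.5-fold (0.58 on the log2 scale). At ETP 3 µM, 8 of the 10 genes were called lower, beside 6.92% of all genes. At MMS 500 µM it was 5 of 10, beside 16.9%, and at QUE 100 µM 7 of 10, beside 14.5%. The median log2 change of the 7 condensin genes was -1.03 with ETP, -0.99 with MMS and -1.34 with QUE, and that of the 3 cohesin genes was -0.50, -0.17 and -0.46. Over all genes the median was 0.01, 0.05 and 0.00. All dosed arrays lay below all DMSO arrays for 8 of the 10 genes at ETP 3 µM, 3 at MMS 500 µM and 5 at QUE 100 µM, beside 11.9%, 17.6% and 13.6% of all genes. In a bulk extract, fewer cells of a kind and less RNA per cell cannot be told apart.

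**Figure D1:**
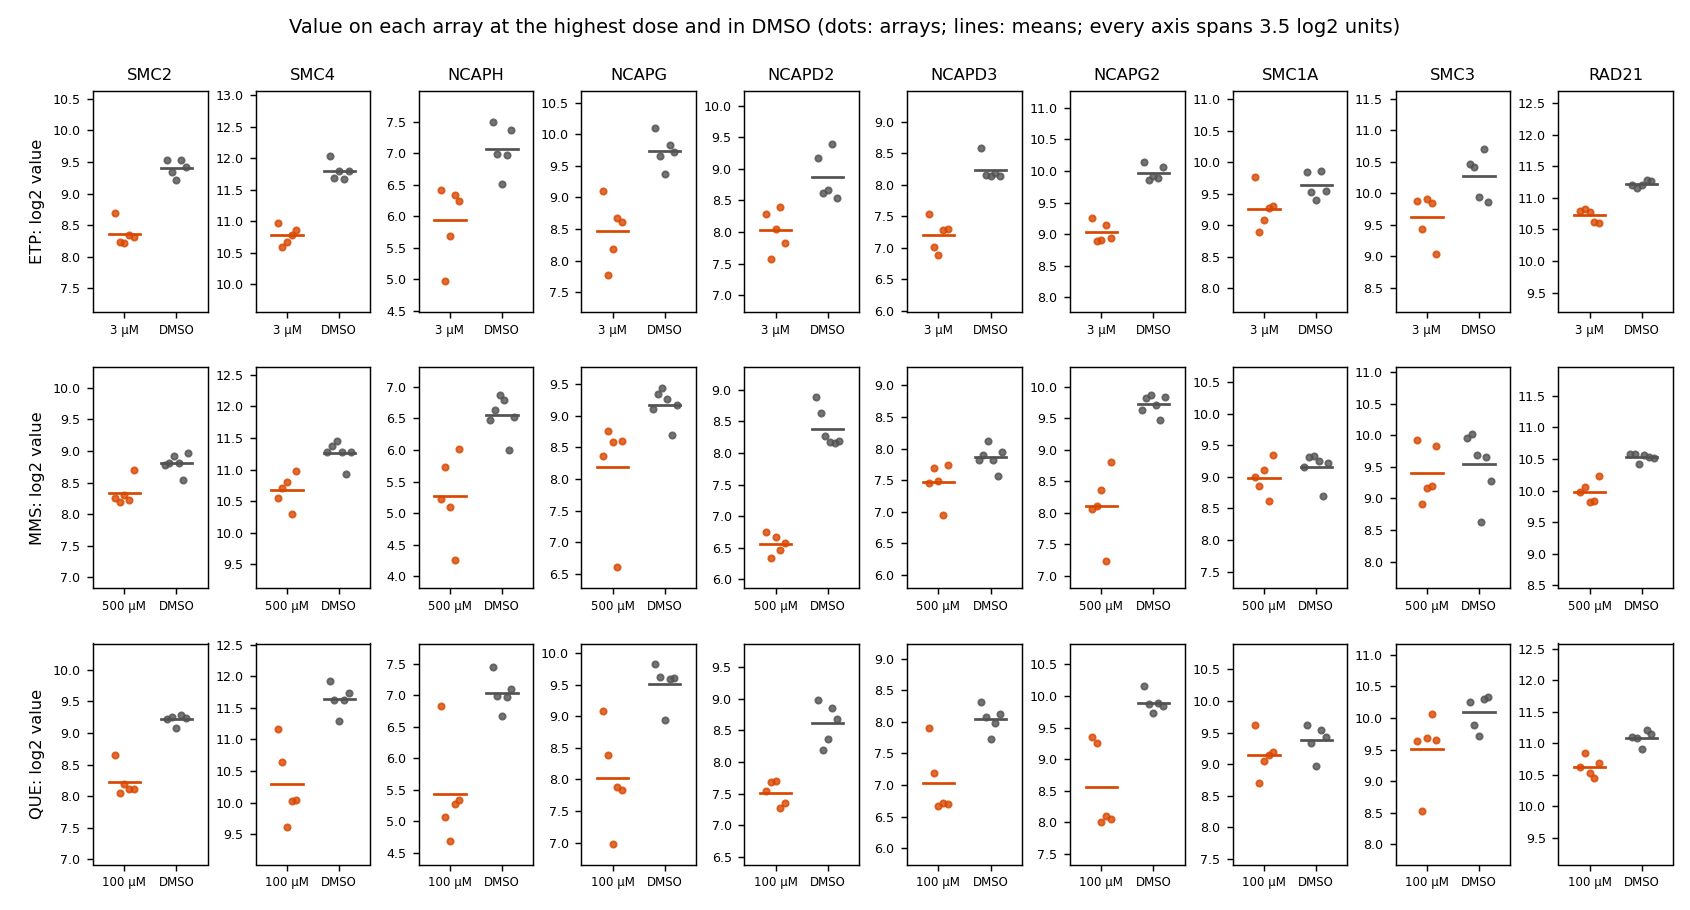
Each panel plots the log2 value of 1 gene on every array at the highest dose (orange, left) and in DMSO (grey, right), with ETP, MMS and QUE in rows and lines at the means. NCAPD2, NCAPG2 and RAD21 do not overlap between the dosed and DMSO arrays in any row, and SMC1A overlaps in every row.

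SMC2, one of the ATPases common to both condensins (GRCh38.p14 chr9:104088263-104141419), had log2 values of 8.70, 8.24, 8.21, 8.35 and 8.32 at ETP 3 µM, against 9.54, 9.34, 9.21, 9.54 and 9.42 in DMSO. The groups did not overlap, and SMC2 fell by 1.05 (SE 0.11, adjusted p = 1.6e-09), to 48.3% of the DMSO level. At QUE 100 µM it had log2 values of 8.64, 8.05, 8.19, 8.11 and 8.12, against 9.22, 9.25, 9.07, 9.28 and 9.24 in DMSO. Again no array overlapped, array 1 was the highest of the dosed arrays, and the log2 change was -0.99 (SE 0.17, adjusted p = 1.2e-05). MMS 500 µM gave log2 values of 8.25, 8.19, 8.31, 8.22 and 8.70, against 8.54 to 8.96 in DMSO (median 8.81). Dosed array 6 lay above DMSO array 5, and the log2 change of -0.47 (SE 0.12, adjusted p = 0.0011) was short of the fold limit, so SMC2 was not called. The dosed values are in the order of replicate numbers throughout, 1, 3, 4, 5 and 6 for ETP and QUE and 2 to 6 for MMS 500 µM.

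SMC4, the other ATPase of both condensins (chr3:160399650-160434953), had log2 values of 10.97, 10.60, 10.67, 10.78 and 10.87 at ETP 3 µM, against 12.03, 11.68, 11.80, 11.67 and 11.79 in DMSO. It fell without overlap, by 1.02 (SE 0.10, adjusted p = 2.2e-10). The QUE 100 µM arrays of SMC4 held 11.16, 10.64, 9.62, 10.02 and 10.04, against 11.92, 11.62, 11.29, 11.62 and 11.74 in DMSO. All were below DMSO, array 1 least so, and the log2 change was -1.34 (SE 0.29, adjusted p = 0.0002). With MMS 500 µM the log2 values were 10.55, 10.70, 10.81, 10.30 and 10.98, against 10.92 to 11.44 in DMSO (median 11.28). SMC4 fell by 0.59 (SE 0.13, adjusted p = 1e-04), just past the fold limit, and the change was -0.57 without replicate 5 of every group, which ends the call.

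NCAPH, the kleisin that closes the condensin I ring (chr2:96335766-96377091), had log2 values of 6.41, 4.98, 5.69, 6.34 and 6.25 at ETP 3 µM, against 7.49, 6.99, 6.52, 6.97 and 7.37 in DMSO. No dosed array reached the lowest DMSO array, and NCAPH fell by 1.13 (SE 0.25, adjusted p = 0.00033). At MMS 500 µM it had log2 values of 5.23, 5.73, 5.10, 4.25 and 6.01, against 6.00 to 6.87 in DMSO (median 6.58). It fell by 1.29 (SE 0.25, adjusted p = 2.1e-05), and dosed array 6 was level with DMSO array 5. QUE 100 µM gave log2 values of 6.82, 5.07, 4.69, 5.27 and 5.34, against 7.45, 6.99, 6.67, 6.97 and 7.09 in DMSO. Array 1 alone stayed among the DMSO values, and the log2 change of -1.60 (SE 0.39, adjusted p = 0.00084), to 33.1% of the DMSO level, was the largest of the 10 genes with QUE.

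NCAPG, a HEAT-repeat subunit of condensin I (chr4:17810979-17844865), had log2 values of 9.10, 7.78, 8.19, 8.67 and 8.61 at ETP 3 µM, against 10.10, 9.66, 9.36, 9.82 and 9.72 in DMSO. The groups did not overlap, and NCAPG fell by 1.26 (SE 0.23, adjusted p = 3e-05), the largest change of the 10 genes with ETP. MMS 500 µM gave NCAPG log2 values of 8.36, 8.76, 8.59, 6.60 and 8.60, against 8.70 to 9.44 in DMSO (median 9.21). Array 5 was far below the other 4, and array 3 lay above the lowest DMSO array. The log2 change was -0.99 (SE 0.26, adjusted p = 0.0012), and it was -0.69 (SE 0.09, adjusted p = 3e-08) without replicate 5. For QUE 100 µM the log2 values were 9.08, 8.38, 6.98, 7.87 and 7.84, against 9.83, 9.63, 8.94, 9.59 and 9.60 in DMSO. Array 1 overlapped DMSO array 4, and NCAPG fell by 1.49 (SE 0.39, adjusted p = 0.0019).

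NCAPD2, the other HEAT-repeat subunit of condensin I (chr12:6494102-6531955), had log2 values of 6.74, 6.33, 6.67, 6.46 and 6.58 at MMS 500 µM, against 8.16 to 8.88 in DMSO (median 8.22). The groups lay more than 1 log2 unit apart, and NCAPD2 fell by 1.83 (SE 0.25, adjusted p = 1.5e-08), to 28.2% of the DMSO level, the largest change of any of the 10 genes at a highest dose. ETP 3 µM gave NCAPD2 log2 values of 8.29, 7.57, 8.05, 8.40 and 7.83, against 9.17, 8.61, 8.66, 9.40 and 8.54 in DMSO. It fell without overlap, by 0.85 (SE 0.22, adjusted p = 0.0019). At QUE 100 µM the log2 values were 7.54, 7.68, 7.70, 7.27 and 7.36, against 8.99, 8.18, 8.36, 8.85 and 8.69 in DMSO. The 5 QUE arrays were close together and all below DMSO, with a log2 change of -1.10 (SE 0.16, adjusted p = 1.1e-06).

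NCAPD3, the HEAT-repeat subunit of condensin II that takes the place of NCAPD2 (chr11:134150113-134225461), had log2 values of 7.54, 7.02, 6.89, 7.28 and 7.30 at ETP 3 µM, against 8.58, 8.15, 8.14, 8.19 and 8.14 in DMSO. It fell without overlap, by 1.03 (SE 0.15, adjusted p = 4.3e-07). At MMS 500 µM the log2 values of NCAPD3 were 7.46, 7.70, 7.49, 6.95 and 7.74, against 7.57 to 8.12 in DMSO (median 7.86). The groups overlapped, and the log2 change of -0.40 (SE 0.15, adjusted p = 0.022) was short of the fold limit. QUE 100 µM gave 7.90, 7.20, 6.66, 6.72 and 6.69, against 8.32, 8.07, 7.73, 7.98 and 8.12 in DMSO, on the log2 scale. Array 1 overlapped DMSO array 4, and NCAPD3 fell by 1.01 (SE 0.26, adjusted p = 0.0016).

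NCAPG2, the condensin II counterpart of NCAPG (chr7:158631169-158704804), had log2 values of 8.06, 8.11, 8.36, 7.24 and 8.81 at MMS 500 µM, against 9.46 to 9.87 in DMSO (median 9.76). The groups did not overlap, and NCAPG2 fell by 1.61 (SE 0.19, adjusted p = 5.1e-10), to 32.8% of the DMSO level. At ETP 3 µM it had log2 values of 9.25, 8.89, 8.90, 9.15 and 8.94, against 10.14, 9.86, 9.93, 9.89 and 10.07 in DMSO. It fell by 0.95 (SE 0.12, adjusted p = 4.4e-08), again without overlap. The QUE 100 µM arrays of NCAPG2 held 9.36, 9.25, 8.00, 8.10 and 8.05, against 10.16, 9.87, 9.72, 9.88 and 9.83 in DMSO. Arrays 1 and 3 stayed over 1 log2 unit above arrays 4, 5 and 6, all 5 were below DMSO, and the log2 change was -1.34 (SE 0.26, adjusted p = 4.9e-05).

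SMC3, an ATPase of cohesin (chr10:110567695-110606048), had log2 values of 9.88, 9.44, 9.91, 9.85 and 9.05 at ETP 3 µM, against 10.46, 10.42, 9.94, 10.70 and 9.86 in DMSO. Dosed arrays 1 and 4 lay above DMSO array 6, and SMC3 fell by 0.65 (SE 0.26, adjusted p = 0.046). Leaving out any 1 of ETP replicates 1, 3, 5 or 6 from every group ended that call, with changes between -0.67 and -0.57. At QUE 100 µM the log2 values of SMC3 were 9.64, 8.53, 9.69, 10.07 and 9.65, against 10.25, 9.89, 9.72, 10.30 and 10.33 in DMSO. Array 3 was far below the other 4, and the log2 change of -0.58 (SE 0.23, adjusted p = 0.03) missed the fold limit narrowly. MMS 500 µM gave 9.93, 8.91, 9.17, 9.19 and 9.83, against 8.63 to 10.02 in DMSO (median 9.67), with a log2 change of -0.13 (SE 0.31, adjusted p = 0.73).

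RAD21, the kleisin of cohesin (chr8:116845934-116874776), had log2 values of 10.79, 10.83, 10.77, 10.61 and 10.61 at ETP 3 µM, against 11.21, 11.15, 11.21, 11.28 and 11.26 in DMSO. With MMS 500 µM it had log2 values of 9.98, 10.06, 9.82, 9.83 and 10.24, against 10.41 to 10.59 in DMSO (median 10.55). With QUE 100 µM it had log2 values of 10.62, 10.85, 10.53, 10.45 and 10.69, against 11.10, 11.09, 10.91, 11.21 and 11.15 in DMSO. The groups did not overlap with any of the 3 chemicals, yet the changes were small. They were -0.50 (SE 0.06, adjusted p = 1.2e-08) with ETP, -0.55 (SE 0.07, adjusted p = 1.6e-08) with MMS and -0.46 (SE 0.07, adjusted p = 2.4e-06) with QUE. Each was short of the fold limit, at 70.7%, 68.5% and 72.7% of the DMSO level.

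SMC1A, the ATPase that pairs with SMC3 (chrX:53374149-53422728), had log2 values of 9.76, 8.89, 9.08, 9.27 and 9.31 at ETP 3 µM, against 9.85, 9.53, 9.40, 9.87 and 9.55 in DMSO. Dosed array 1 overlapped 3 DMSO arrays, and the log2 change was -0.38 (SE 0.18, adjusted p = 0.099). SMC1A had log2 values of 8.99, 8.86, 9.11, 8.62 and 9.35 at MMS 500 µM, against 8.70 to 9.33 in DMSO (median 9.24). At QUE 100 µM they were 9.61, 8.70, 9.04, 9.15 and 9.19, against 9.62, 9.33, 8.96, 9.55 and 9.42 in DMSO. The groups overlapped on most arrays, with log2 changes of -0.17 (SE 0.17, adjusted p = 0.39) and -0.24 (SE 0.18, adjusted p = 0.28). With the replicate number as a block, the adjusted p of SMC1A was 5.7e-05 with ETP, 0.028 with MMS and 0.022 with QUE, and each change stayed short of the fold limit.

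Over all 7 doses, limma's moderated F-test passed 9 of the 10 genes with ETP, 8 with MMS and 9 with QUE, beside 38.3%, 59.3% and 56.8% of all genes. SMC1A missed it with ETP (adjusted p = 0.25), MMS (adjusted p = 0.14) and QUE (adjusted p = 0.51), and SMC3 missed it with MMS (adjusted p = 0.99). With the replicate number as a block SMC1A passed with ETP (adjusted p = 2.1e-06), MMS (adjusted p = 9.8e-08) and QUE (adjusted p = 0.0031), and SMC3 still missed it with MMS (adjusted p = 0.66).

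**Figure D2:**
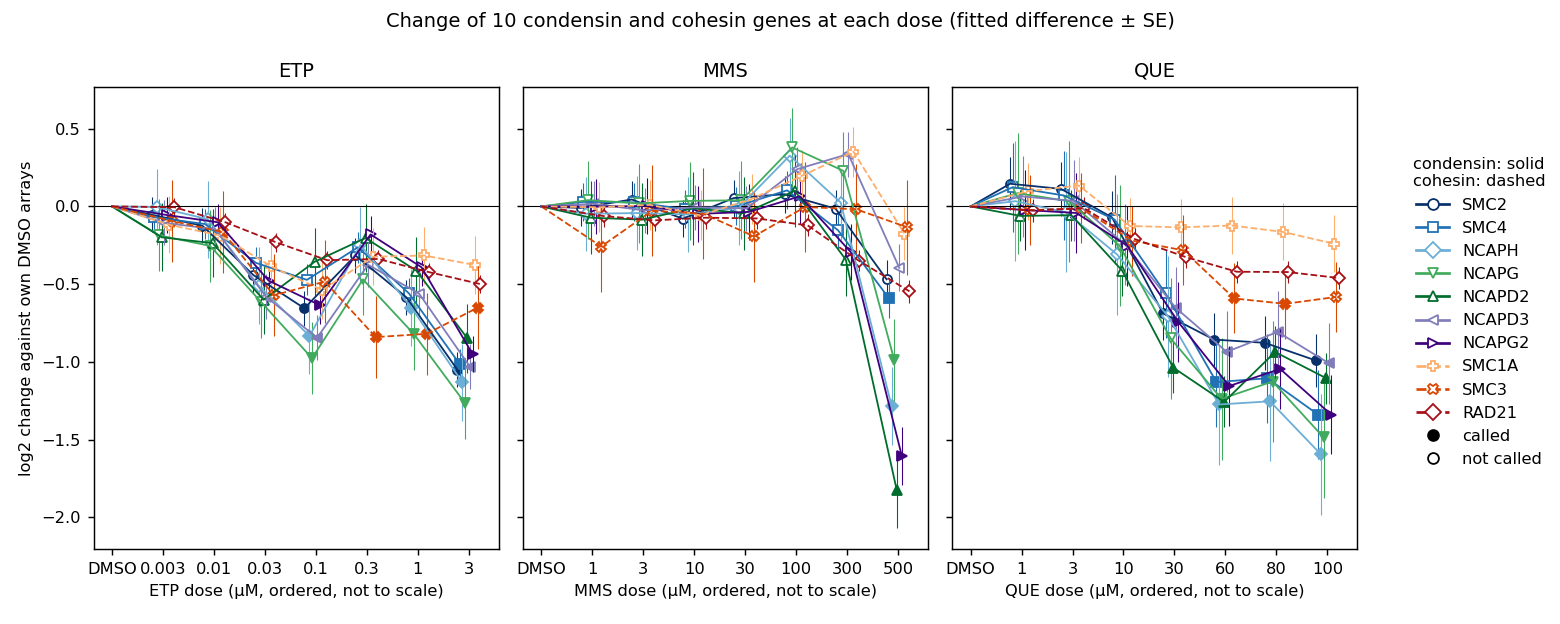
The log2 change of each gene against its own DMSO arrays is plotted by dose for ETP, MMS and QUE, with bars for the SE, condensin solid, cohesin dashed and called changes filled. Condensin genes other than NCAPD2, which is lower at 0.03 µM (-0.60) than at 0.1 µM (-0.36), dip at ETP 0.1 µM. All 7 lie nearer DMSO at 0.3 µM and are lowest at 3 µM, drop at MMS 500 µM alone, and decline from QUE 30 µM on.

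The ETP series was not a steady decline. At 0.1 µM SMC2 (-0.66), NCAPH (-0.83), NCAPG (-0.98), NCAPD3 (-0.85) and NCAPG2 (-0.64) fell on the log2 scale, 5 of 10 genes beside 2.36% of all genes, and 3 without replicate 5. At 0.3 µM no condensin gene was called by the probe sets used here, and their median log2 change was -0.26. SMC3 (-0.84, SE 0.26, adjusted p = 0.021) was the only one of the 10 called, beside 1.53% of all genes. At 1 µM NCAPH (-0.65), NCAPG (-0.82) and SMC3 (-0.82) fell, beside 3.73% of all genes, and 3 µM brought the 8 calls given above. At 0.003 and 0.01 µM 0 of the 10 were called by limma, beside 0% of all genes, and 0 had an unadjusted p under 0.05. At 0.03 µM 0 were called, beside 0.265% of all genes. All 10 had an unadjusted p under 0.05 there, beside 16.2% of all genes, and with the replicate number as a block NCAPG (-0.61) and NCAPD2 (-0.60) were called. Without replicate 3, 1 was called at that dose.

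The plot of arrays across the ETP doses shows this course for single arrays. NCAPG had log2 values of 9.39, 8.98, 7.99, 8.68 and 8.74 at 0.1 µM, 9.81, 8.90, 9.02, 9.25 and 9.35 at 0.3 µM, and 9.42, 8.43, 8.46, 9.10 and 9.14 at 1 µM. Arrays 1, 4, 5 and 6 were higher at 0.3 µM than at 0.1 µM, and array 3 was lower. NCAPD3 had log2 values of 8.20, 7.77, 7.61, 7.91 and 7.83 at 0.3 µM, against 7.67, 7.62, 7.09, 7.28 and 7.31 at 0.1 µM, and all 5 were higher at 0.3 µM. Set directly against each other, 3 µM was lower than 0.3 µM for all 7 condensin genes, by 0.65 (NCAPD2, adjusted p = 0.043) to 0.88 (NCAPH, adjusted p = 0.012), beside 2.5% of all genes. For SMC1A, SMC3 and RAD21 the same difference was -0.05, 0.19 and -0.16, with 0 called. Without replicate 6, 4 of those 7 condensin differences were called.

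Between 0.3 and 0.1 µM, a test added after the values were seen, none of the 10 genes was called by limma. The median difference of the 7 condensin genes was 0.45, and 6 of them had an unadjusted p under 0.05, beside 9.12% of all genes. With the replicate number as a block NCAPH was called higher at 0.3 µM (0.59, adjusted p = 0.005), beside 0.24% of all genes called higher without the block. Between 3 and 0.1 µM, added likewise, 0 of the 10 were called, beside 2.05% of all genes, and 5 had an unadjusted p under 0.05, beside 30.4%. SMC4 (-0.54, adjusted p = 0.00012) and SMC2 (-0.39, adjusted p = 0.011) were short of the fold limit.

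SMC3 did not follow the condensin genes across the ETP doses. Its log2 values were 9.92, 8.52, 10.09, 9.54 and 9.10 at 0.3 µM, and 10.00, 9.57, 9.78, 9.99 and 9.62 at 0.1 µM. Arrays 3 and 6 were the low ones at 0.3 µM, and without replicate 3 the change against DMSO was -0.58 (adjusted p = 0.051) and the call ended, as it did without replicate 5 or 6. RAD21 had log2 values of 10.85, 11.02, 10.86, 10.75 and 10.89 at 0.1 µM and 10.90, 10.84, 10.98, 10.85 and 10.86 at 0.3 µM, all below its DMSO arrays, with changes of -0.35 and -0.34.

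**Figure D3:**
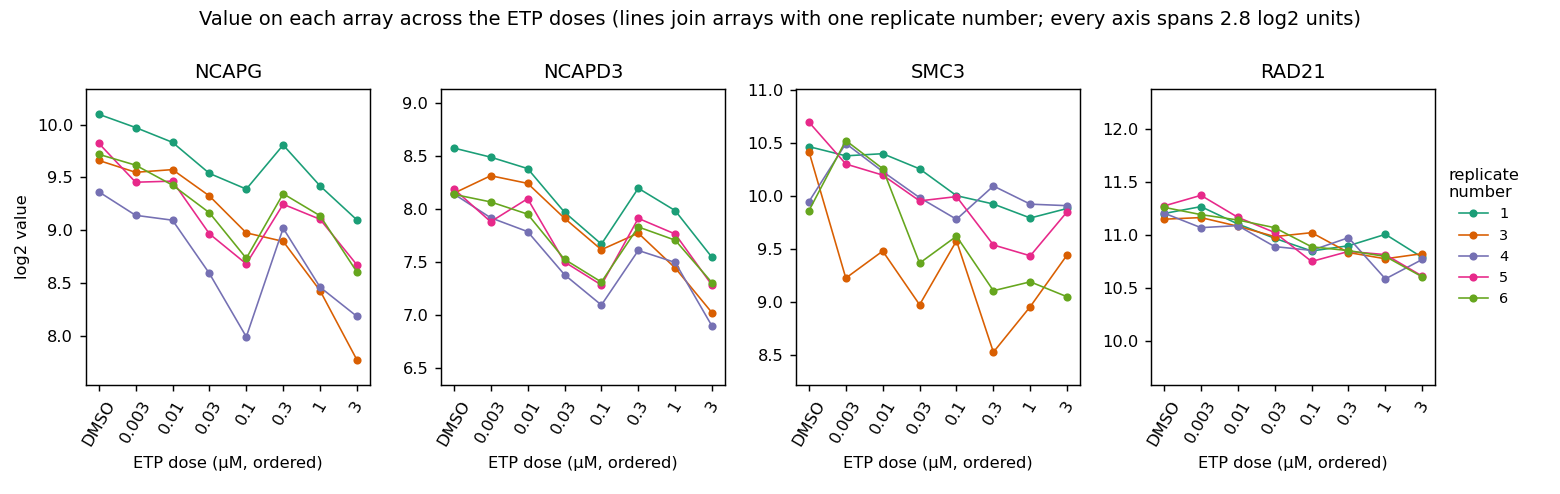
The log2 value on each array is plotted by ETP dose, DMSO at the left, for NCAPG, NCAPD3, SMC3 and RAD21, with lines joining arrays of the same replicate number. NCAPD3 is higher at 0.3 µM than at 0.1 µM on all 5 arrays, array 3 of SMC3 is the lowest from 0.003 to 1 µM but not in DMSO or at 3 µM, and RAD21 stays within a narrow band.

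With MMS, limma called 0 of the 10 genes at 1, 3, 10, 30 or 100 µM, and 0 had an unadjusted p under 0.05 there. Of all genes, 0% were called lower at 1 to 30 µM and 1.19% at 100 µM, where 16.4% had an unadjusted p under 0.05. Without replicate 5, 5 of the 10 had an unadjusted p under 0.05 at 100 µM, NCAPG (0.36, adjusted p = 0.0061), NCAPD3 (0.24), SMC1A (0.21), NCAPH (0.31) and RAD21 (-0.15), and 0 were called. Of all genes 1.51% were called lower and 0.456% higher in that fit, and their share by unadjusted p was not counted in it. At 300 µM 0 were called, beside 7.75% of all genes called lower, and 3 had an unadjusted p under 0.05, beside 44.6% of all genes, although RAD21 (-0.35, SE 0.07, adjusted p = 0.00011) lay below DMSO on all 6 arrays. Replicate 5 stood apart at 300 µM. NCAPG2 had log2 values of 9.64, 9.66, 9.82, 9.69 and 9.67 on the other 5 arrays and 8.08 on array 5, and NCAPD2 had 8.95, 8.35, 7.82, 8.30 and 7.93 and 6.88. Those values of array 5 were nearer to its own values at 500 µM, 7.24 for NCAPG2 and 6.46 for NCAPD2, than to its DMSO values of 9.46 and 8.16. The same held for SMC2 and SMC4. For the other condensin genes its values at 300 µM were nearer to DMSO. These were NCAPG (7.80, against 8.70 in DMSO and 6.60 at 500 µM), NCAPH (5.17, against 6.00 and 4.25) and NCAPD3 (7.34, against 7.57 and 6.95). Without replicate 5, 0 of the 10 were called at 300 µM, beside 6.57% of all genes called lower. NCAPG (0.45, adjusted p = 6.2e-05), NCAPD3 (0.45, adjusted p = 3.5e-05) and SMC1A (0.39, adjusted p = 0.0002) then lay above DMSO by less than the fold limit.

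The step from 300 to 500 µM was large for condensin. The difference between these doses was -1.48 for NCAPD2, -1.31 for NCAPG2, -1.31 for NCAPH, -1.22 for NCAPG and -0.73 for NCAPD3, and these 5 were called, beside 10.5% of all genes. The adjusted p of the 5 was at most 0.00019. SMC2 (-0.45), SMC4 (-0.44), SMC1A (-0.53) and RAD21 (-0.20) had adjusted p-values under 0.05 with differences short of the fold limit, and SMC3 (-0.12) had an adjusted p of 0.79.

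With QUE, limma called 0 of the 10 genes at 1, 3 or 10 µM, beside 0.0249%, 0.0663% and 0.671% of all genes called lower. At 10 µM 2 of the 10 had an unadjusted p under 0.05, beside 15.5% of all genes. At 30 µM NCAPD2 (-1.04, adjusted p = 7.2e-06), NCAPG2 (-0.74), SMC2 (-0.69) and NCAPD3 (-0.65) fell, 4 of 10 beside 8.64% of all genes, and with the replicate number as a block NCAPH (-0.71) and NCAPG (-0.85) were called as well. Replicate 3 stood apart at this dose. NCAPG2 had log2 values of 9.46, 8.15, 9.26, 9.51 and 9.37 at 30 µM, against 10.16, 9.87, 9.72, 9.88 and 9.83 in DMSO, and the second of these is array 3. NCAPD2 had log2 values of 7.69, 7.22, 7.58, 7.76 and 7.64, against 8.99, 8.18, 8.36, 8.85 and 8.69 in DMSO, with all arrays below DMSO. Without replicate 3 of every group, NCAPD2 (-1.06) was the only one of the 10 called at 30 µM, beside 8% of all genes called lower in that fit. Without replicate 6, 2 were called there.

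At QUE 60 and 80 µM the 7 condensin genes and SMC3 fell, 8 of 10 at each dose, beside 12.7% and 13.1% of all genes. The condensin changes ran between -1.27 (NCAPH) and -0.86 (SMC2) at 60 µM and between -1.25 (NCAPH) and -0.81 (NCAPD3) at 80 µM. SMC3 had changes of -0.59 (adjusted p = 0.029) and -0.63 (adjusted p = 0.022), and RAD21 of -0.42 at both doses. Without replicate 3 SMC3 was short of the fold limit at both (-0.54 and -0.52). Leaving out 1 replicate at a time gave 7 to 8 calls at 60 µM and 6 to 7 at 80 µM, and with the arrays titled as replicate 2 kept there were 7 at each. Between 100 and 30 µM limma called 0 of the 10 genes, beside 2.55% of all genes, and 3 had an unadjusted p under 0.05, beside 27.2%. With the block SMC4 (-0.78, adjusted p = 0.0099), NCAPH (-0.89, adjusted p = 0.0086) and NCAPG2 (-0.60, adjusted p = 0.047) were called, and without replicate 3 NCAPG was called beside those 3. Without replicate 1, 2 were called. NCAPD2 differed by -0.07 (SE 0.16) between these doses.

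**Figure D4:**
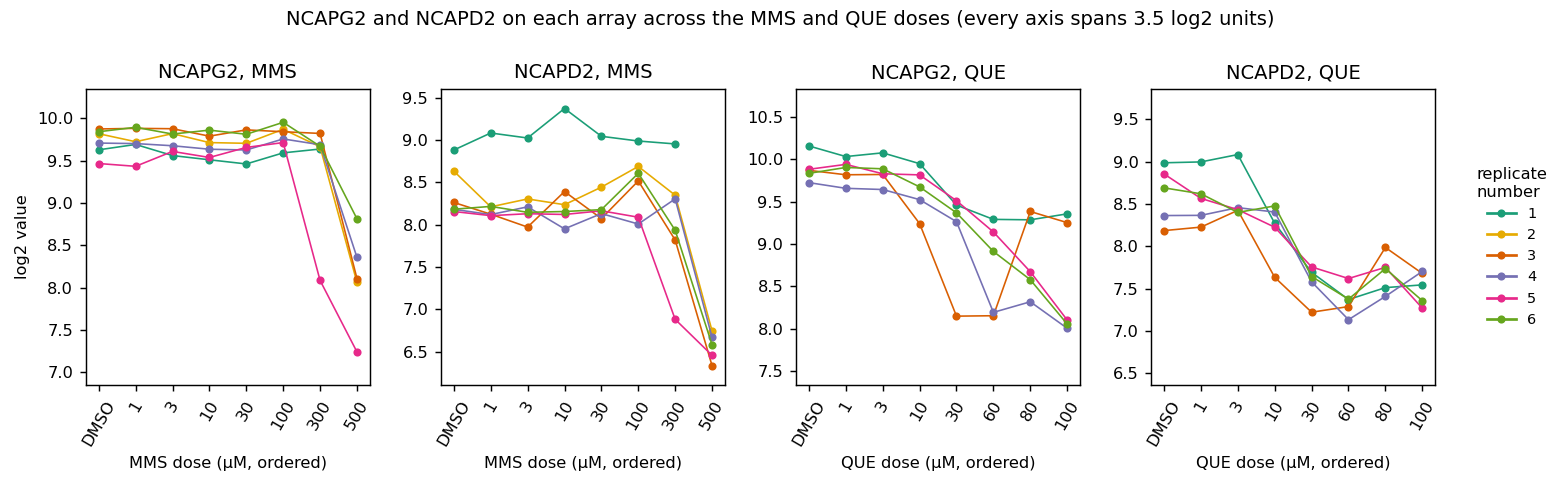
The log2 values of NCAPG2 and NCAPD2 on each array are plotted by MMS and QUE dose, DMSO at the left, with lines joining arrays of the same replicate number. MMS replicate 5 drops at 300 µM and further at 500 µM, and the other replicates that have a 500 µM array drop at that dose. QUE replicate 3 is low for NCAPG2 at 30 and 60 µM and back above 9 at 80 µM, and QUE NCAPD2 is below its DMSO arrays from 30 µM on.

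The changes at the highest doses were then compared between chemicals, each against its own DMSO group, over 10 genes and 3 pairs of chemicals. These are different doses of different compounds, chosen as the highest of each series. In ETP minus MMS, NCAPD2 (0.98, SE 0.31, adjusted p = 0.007) and NCAPG2 (0.66, SE 0.28, adjusted p = 0.048) were called higher, so they fell less with ETP, and NCAPD3 (-0.64, SE 0.27, adjusted p = 0.047) was called lower, so its change was further down with ETP. These were 2 and 1 of 10 genes, beside 15.6% and 14.9% of all genes, so the counts were near the shares of all genes. The NCAPD3 call ended with the arrays titled as replicate 2 kept (adjusted p = 0.056), without the filter (adjusted p = 0.071) and after quantile normalization (adjusted p = 0.056), and the NCAPG2 call ended in the first of these (adjusted p = 0.18), without the filter (adjusted p = 0.072) and after centring (adjusted p = 0.066). NCAPD2 was called in all of them. SMC2 (-0.58, 95% interval -0.97 to -0.19, adjusted p = 0.011) missed the fold limit narrowly, and SMC3 (-0.64, adjusted p = 0.032) was called with the block.

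In MMS minus QUE, SMC4 (0.75, SE 0.27, adjusted p = 0.018) was called higher, so it fell less with MMS. That was 1 of 10 genes, near the share of 14.5% of all genes. SMC2 (0.52, adjusted p = 0.025) was short of the fold limit. NCAPD2 (-0.72, adjusted p = 0.055) missed the adjusted p, and NCAPD3 (0.63, adjusted p = 0.0018) was called with the block. In ETP minus QUE none of the 10 genes was called by limma, and 0 had an unadjusted p under 0.05, beside 43.5% of all genes. Of all genes 10.7% were called lower and 12.8% higher. The 95% intervals of that difference ran from -0.41 to 1.34 for NCAPH, from -0.66 to 1.10 for NCAPG and from -0.24 to 0.16 for RAD21, so differences of over 1 log2 unit remain possible for both condensin genes.

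**Figure D5:**
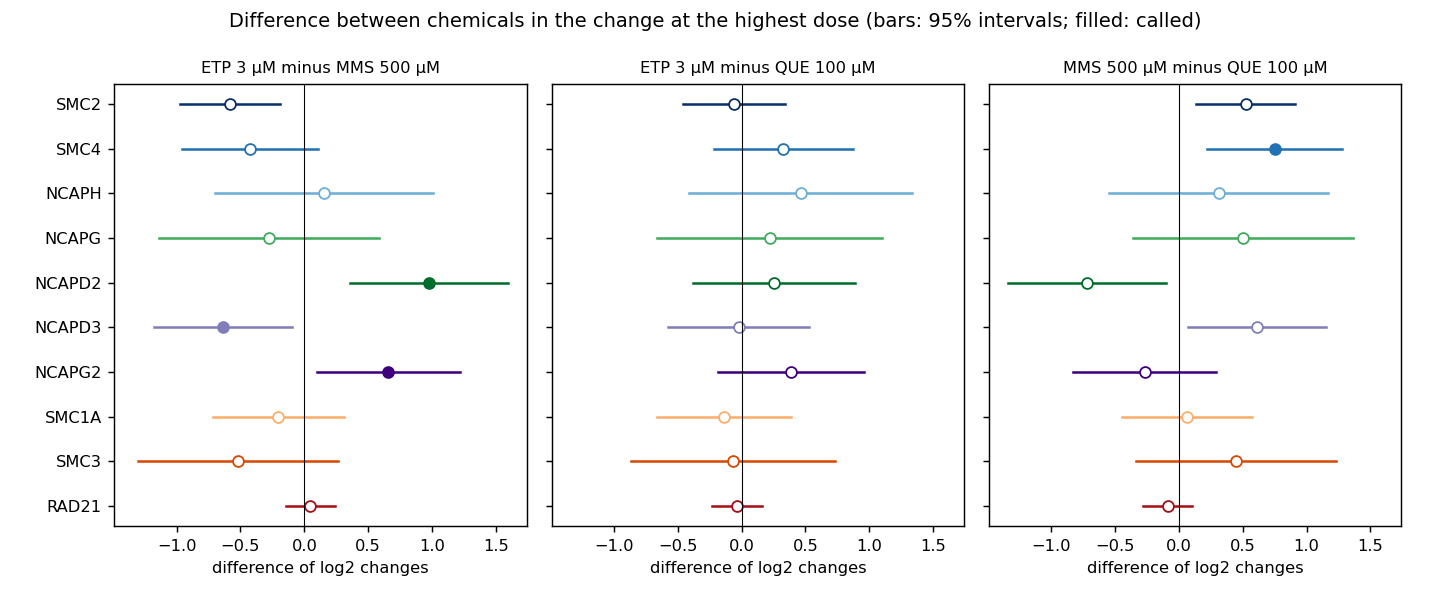
The difference between chemicals in the log2 change at the highest dose is plotted for each gene, with bars for the 95% interval and called differences filled. NCAPD2, NCAPD3 and NCAPG2 are called in ETP minus MMS, none in ETP minus QUE, and SMC4 in MMS minus QUE.

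Within a complex the genes did not all carry the same change. At MMS 500 µM the log2 changes of condensin I ran from -1.83 (NCAPD2) to -0.47 (SMC2), and those of the condensin II subunits were -1.61 (NCAPG2) and -0.40 (NCAPD3). At ETP 3 µM the 7 condensin changes lay between -1.26 and -0.85, and at QUE 100 µM between -1.60 and -0.99. Over the 21 dose changes, the Pearson correlation between 2 condensin genes had a median of 0.91 over 21 pairs (0.69 to 0.97), that between 2 cohesin genes 0.67 over 3 pairs, and that between a condensin and a cohesin gene 0.74 over 21 pairs. The 21 points share the DMSO arrays of their chemical, so these values describe likeness only.

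The genes outside the 10 with the most alike course over the 21 dose changes were named by Pearson correlation. For NCAPG they were UBE2T (0.99), a ubiquitin-conjugating enzyme of the Fanconi anemia pathway, and KIF22 (0.98), a mitotic chromosome motor that was also nearest to SMC2 (0.98). NCAPG2 was nearest to KNL1 (0.99), a kinetochore scaffold, NCAPH to KIF11 (0.99), the motor that separates spindle poles, and SMC4 to ARHGAP11A (0.99). NCAPD2 was nearest to PTTG1 (0.99), which encodes securin, and NCAPD3 to SNRNP40 (0.98), a subunit of the spliceosome. Of the cohesin genes, SMC1A was nearest to POLR3K (0.95), a subunit of RNA polymerase III, SMC3 to PM20D2 (0.95) and RAD21 to WDR4 (0.97), a subunit of a tRNA methyltransferase. The second genes of these pairs were RFC5, KIF14, RACGAP1, CDKN3, NUP93, HMGB2, RFC3, DLAT and MCUB, at 0.92 to 0.99.

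Other genes of these pathways were followed as lists at the highest dose of each chemical. Their counts stand beside all genes, of which 6.92% were called lower and 6.25% higher with ETP, 16.9% and 17.7% with MMS and 14.5% and 13.1% with QUE. Of 11 measured further subunits of condensin, cohesin and SMC5/6, 2 fell at ETP 3 µM, STAG1 (-1.46), a subunit that binds cohesin to DNA, and NSMCE4A (-1.05), a subunit of the SMC5/6 complex. Both fell at MMS 500 µM (-0.82 and -0.80) and QUE 100 µM (-0.94 and -0.96) too, and EID3, a paralog of NSMCE4A, rose with MMS (0.79) and QUE (1.99). NSMCE3 (0.65) also rose with MMS. Of these 11 genes, 2 were lower and 2 higher with MMS, and 2 lower and 1 higher with QUE, near the shares of all genes each way. Of 11 genes of cohesin loading, release and acetylation, 2, 2 and 3 fell with ETP, MMS and QUE and 0, 2 and 1 rose, with MMS near the shares of all genes each way. With ETP these were NIPBL (-0.80), the cohesin loader, and DDX11 (-0.73), a helicase. HDAC8, which deacetylates SMC3, fell with MMS (-1.02) and QUE (-1.14), as did PDS5B (-0.67 and -1.76), and MAU2, the partner of NIPBL, rose with both (0.82 and 0.93). The medians of these 11 genes were -0.47 with ETP, 0.02 with MMS and -0.27 with QUE.

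Of 9 genes that protect or cleave cohesin, 6 fell with each chemical, among them PLK1 (-1.47, -2.12 and -1.90 with ETP, MMS and QUE) and BUB1 (-1.43, -1.70 and -3.20), both mitotic kinases. Of 13 measured partners that shape mitotic chromosomes, 8, 8 and 10 fell, among them AURKB (-1.84 with ETP and -2.04 with QUE) and TOP2A (-2.51 with MMS), and AKAP8 (0.76) rose with MMS. Of 22 genes of G2/M and mitosis, 21, 22 and 22 fell, and of 26 measured genes of G1/S and DNA replication 17, 11 and 10 fell and 1, 3 and 0 rose. Of 9 measured housekeeping genes 0, 1 and 1 fell and 0, 1 and 0 rose.

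Genes of the G2/M list fell at the highest doses, as the condensin genes did. The mean of the 22 G2/M genes lay between 7.77 and 8.95 on the ETP 3 µM arrays, against 9.68 and 10.1 in DMSO, between 6.56 and 8.02 at MMS 500 µM, against 8.94 and 9.61, and between 6.52 and 8.35 at QUE 100 µM, against 9.34 and 9.94. Their mean log2 value was 9.15 at ETP 0.1 µM, 9.62 at 0.3 µM and 9.10 at 1 µM. At MMS 300 µM it was 8.81, against 9.34 in DMSO, and the lowest array, replicate 5, had 6.84. At that dose 7 of the 22 were called lower, with a median log2 change of -0.47, whereas no condensin gene was called. The G1/S list had a mean of 8.26, 8.42 and 8.32 at ETP 0.1, 0.3 and 1 µM, against 9.15 in DMSO. At 0.1 µM 21 of its 26 genes were called lower and at 0.3 µM 14, whereas of the G2/M list 12 and 2 were. The part of these lists in the condensin changes was not tested.

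Other probe sets of the same genes gave mostly the same direction at different sizes. The second SMC2 probe set fell at ETP 3 µM (-0.88) and QUE 100 µM (-0.81). It was not called by limma at MMS 500 µM (-0.30, adjusted p = 0.052) or at QUE 30 µM (-0.42, adjusted p = 0.18), where the chosen one was. The third SMC2 probe set was dim (mean log2 value 3.96). It fell at ETP 3 µM (-0.65) and was not called at MMS 500 µM (0.26) or QUE 100 µM (-0.41). The second SMC4 probe set changed by -1.26 at ETP 3 µM, -0.90 at MMS 500 µM and -2.02 at QUE 100 µM, and all 3 were called. The second NCAPG probe set changed by -1.27, -1.13 and -1.48 at those doses. For RAD21 the second probe set fell at MMS 500 µM (-1.13, adjusted p = 0.02) and QUE 100 µM (-0.90, adjusted p = 0.00021), where the chosen one was short of the fold limit. The second SMC3 probe set had the smaller SE, 0.07 at ETP 3 µM, where it fell by 0.66 (adjusted p = 6.1e-10), and it changed by 0.09 at MMS 500 µM and -0.49 at QUE 100 µM. At ETP 0.1 and 0.3 µM it changed by -0.47 and -0.51, short of the fold limit at both, so it did not give the call of the chosen one at 0.3 µM. The third SMC3 probe set fell at ETP 3 µM (-0.80), ETP 0.3 µM (-0.96) and QUE 100 µM (-0.87, adjusted p = 0.0021), and changed by -0.31 at MMS 500 µM. Both other SMC1A probe sets that passed the filter were dimmer than the chosen one (mean log2 values 5.01 and 3.54). At MMS 500 µM both were called lower by limma, by 0.71 (adjusted p = 9.2e-08) and 0.60 (adjusted p = 0.032), where the chosen one was not.

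The arrays titled as replicate 2 moved the same way for condensin under either label. On the array labelled ETP 3 µM, NCAPG had a log2 value of 7.44, against 8.94 on the DMSO array of that number, and on the array labelled QUE 100 µM 7.66, against 8.97. With these arrays kept, the counts of called genes at the highest doses were 8 with ETP and 7 with QUE, as without them. At ETP 0.1 µM 1 of the 10 genes was called with them, NCAPD3 (-0.71), in place of 5, and at 1 µM 7 in place of 3.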

How the data were processed

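The values were deposited as log2 expression per probe set, which the authors made with GCRMA in Partek, per the submitters' processing notes. Their versions and the annotation they used are not given in the sources used here. The scope of the authors' normalization is not stated either, so each chemical was set against its own DMSO arrays. Probe sets were named from the platform annotation, and of 54613, 40914 had 1 symbol, 864 several and 12835 none. Probe sets with a log2 value of at least 4 on at least 5 arrays were kept (27102), and each gene was taken from the kept probe set with the highest mean, which left 12070 genes. Repeated arrays of a replicate were averaged, and 127 replicates entered the fits.

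Changes were tested with limma 3.58.1 in R 4.3.3 (lmFit, then eBayes with a mean-variance trend), per chemical over its 8 groups, with Benjamini-Hochberg adjustment over all genes. Differences between chemicals came from 1 fit over all 24 groups. The code was tested on simulated data. A gene was called at an adjusted p under 0.05 and at least 1.5-fold. Figures were drawn with matplotlib 3.10.9 in Python 3.11.15. The precision is limited by the number of arrays.

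Replicate numbers come from the titles. Deviations of same-numbered arrays from their group means correlated at over 0.1 in every pair at 7 of 7 ETP doses, 6 of 7 MMS doses and 4 of 7 QUE doses, with means of 0.47, 0.55 and 0.34, against -0.11, -0.10 and -0.08 for other numbers. Deviations cancel out within a group, so the means for other numbers largely follow from those for the same number. The block on replicate number was an alternative. The others were keeping the arrays titled as replicate 2, no filter, the mean of a gene's probe sets, quantile normalization over all arrays, centring, no trend, no fold limit, leaving out arrays with a title suffix, and leaving out each replicate.

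All 10 genes are described. For each, the 2 genes with the highest correlation are named, and for each list the called genes with the largest changes, up to 3 in a direction, from which the text gives a selection. Members and lists were chosen with earlier results of these data known.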

Additional observations from a re-analysis of the deposited data

Results flagged for a closer look

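Within 240 groups of 5 or 6 arrays, 33 held an array whose gap to its nearest neighbour was a larger part of the group's range than Dixon's 95% value, and chance alone gives about 1 in 20 groups. Replicate 5 of MMS at 300 µM was the low array for 7 of the 10 genes. Its log2 values there were 8.0634 for SMC2, 10.1880 for SMC4, 5.1711 for NCAPH, 7.8036 for NCAPG, 7.3358 for NCAPD3, 8.0838 for NCAPG2 and 8.8486 for SMC1A. The same replicate was low for NCAPG at 100 µM (9.1556) and 500 µM (6.6011), for SMC4 in DMSO (10.9241) and at 3 µM (11.0714), and for SMC1A in DMSO (8.6986), at 3 µM (8.4042) and at 100 µM (8.8402). MMS replicate 1 was high for NCAPD2 at 1 µM (9.0822), 3 µM (9.0231) and 10 µM (9.3715). MMS replicate 4 was low for SMC3 at 1 µM (7.9841) and 300 µM (8.1643), and replicate 6 was high for SMC2 at 500 µM (8.7037).

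QUE replicate 3 was the low array at 30 µM for SMC2 (7.6433), NCAPH (5.1032) and NCAPG2 (8.1476), and at 100 µM for SMC3 (8.5323). QUE replicate 4 was low in DMSO for SMC2 (9.0723) and NCAPG (8.9374), and at 1 µM for RAD21 (10.9724). QUE replicate 1 was high at 3 µM for NCAPD2 (9.0821) and at 100 µM for SMC2 (8.6440). In the ETP experiment replicate 3 was low for SMC3 at 0.003 µM (9.2223) and 0.01 µM (9.4775), and replicate 1 was high for SMC2 at 3 µM (8.6958) and for NCAPD3 in DMSO (8.5755).

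Changes at the highest doses that differed between chemicals by limma's test of the difference were those of NCAPD2 (0.9755), NCAPG2 (0.6563) and NCAPD3 (-0.6363) in ETP minus MMS and of SMC4 (0.7489) in MMS minus QUE, on the log2 scale. In ETP minus MMS these were 2 higher and 1 lower of 10 genes, beside 15.6% and 14.9% of all genes. In MMS minus QUE it was 1 higher of 10, beside 14.5%. For both pairs of chemicals these counts were near the shares of all genes. The NCAPG2 and NCAPD3 calls ended under some of the alternatives.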

How the results depend on the processing

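No change of a member that was called in either of 2 settings compared differed in sign between them. Changes called in neither did change sign in places, such as SMC3 at MMS 500 µM, between -0.31 and 0.02 when replicates were left out. The counts lower at ETP 3 µM and QUE 100 µM were 7 to 8 when replicates were left out. With the replicate number as a block, members called lower were 2 at ETP 0.03 µM in place of 0, 3 in QUE 100 minus 30 µM in place of 0 and 2 in ETP minus MMS in place of 1, and members called higher were 1 in ETP 0.3 minus 0.1 µM in place of 0 and 2 in MMS minus QUE in place of 1. The block changed no other count by over 1.5 times. Without a fold limit, the counts lower were 5, 8, 3 and 8 at ETP 0.03, 0.1, 0.3 and 1 µM (0, 5, 1 and 3 with it), 2 in ETP 3 minus 0.1 µM, 1 and 8 at MMS 300 and 500 µM, 9 in MMS 500 minus 300 µM and 2 in ETP minus MMS, and 2 were higher in MMS minus QUE. By that rule 1.2%, 8.08%, 8.72% and 14.7% of all genes were lower at those ETP doses, and 8.83% in ETP 3 minus 0.1 µM. Of all genes, 16.9% and 27.3% were lower at MMS 300 and 500 µM, and 21.2% in the difference between them. In ETP minus MMS 25.2% were lower, and in MMS minus QUE 22.5% were higher. With the arrays titled as replicate 2 kept, the counts lower were 1, 0 and 7 at ETP 0.1, 0.3 and 1 µM and 1 in ETP 3 minus 0.1 µM, with 0 lower and 1 higher in ETP minus MMS. Without arrays with a title suffix, 1 was lower at ETP 0.03 µM, 0 at ETP 0.3 µM and 1 in QUE 100 minus 30 µM, and 3 were higher in MMS minus QUE. The mean of a gene's probe sets gave 5 lower at ETP 1 µM and 2 in ETP minus MMS. ETP minus MMS had 0 lower and 1 higher (in place of 2) without the filter, 0 lower after quantile normalization, and 2 lower and 1 higher after centring, which gave 2 higher in MMS minus QUE. The cause of these shifts was not tested.

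Leaving out each replicate gave counts lower of 0 to 1 at ETP 0.03 µM, 3 to 6 at 0.1 µM, 0 to 1 at 0.3 µM and 4 to 6 in 3 minus 0.3 µM. The range was 1 to 4 at QUE 30 µM and 0 to 4 in QUE 100 minus 30 µM, and 4 to 6 at MMS 500 µM. SMC3 at ETP 3 µM lost its call in 9 of 15 such fits, and its adjusted p was 0.063 without the filter, 0.055 after quantile normalization and 0.051 without the trend. SMC4 at MMS 500 µM lost its call in 7 of 17. With 5 or 6 arrays a group, small changes were not detectable.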
